A study of Mus musculus with 15 samples.

Results

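The enzymes and transporters described here are 10 of the 17030 genes in the table: Slc7a1, Slc7a2, Arg1, Arg2, Nos2, Gch1, Ass1, Asl, Odc1 and Oat. They carry arginine into the cell or act on it and its products, except Gch1, which helps make a cofactor of nitric oxide synthase. They were chosen by name, and all 10 of 10 matched a row of the table. All 10 passed the low-value filter, which asked for at least 1 FPKM in 3 of 15 libraries. FPKM is the number of fragments scaled by transcript length and library total, so levels of different genes are compared only on that scale. The study measured messenger RNA in cells from mouse bone marrow, in 5 groups of 3 libraries (15 in all). Progenitor cells, Hoxb8 macrophages and bone marrow-derived macrophages (BMDM) were wild type and untreated. CAR macrophages carried the genotype of CAR expression and were CAR treated, and control-CAR macrophages carried Control-CAR expression and were Control-CAR treated. CAR stands in this field for a chimeric antigen receptor, which is built to steer immune cells to an antigen of choice. All groups are labelled as primary cells, and the labels give neither a promoter nor the clone, culture or animal behind a library. The p-values below are thus set against a spread among samples that may be only technical.

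Arginine is a semi-essential amino acid that macrophages take up through the cationic transporters of the Slc7a family. Arginases split it to ornithine and urea, and nitric oxide synthase oxidises it to nitric oxide and citrulline. Arg1 and Nos2 compete for the same substrate and are the textbook pair of alternatively and classically activated mouse macrophages. Ornithine is then turned to putrescine, the first polyamine, by ornithine decarboxylase, or towards proline and glutamate by ornithine aminotransferase. Citrulline is rebuilt to arginine by Ass1 and Asl, and Gch1 makes the tetrahydrobiopterin (BH4) that nitric oxide synthase needs.

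The sequence upstream of the start is shown for the 3 genes that mark the extremes among the members with a promoter entry in RefSeq: Odc1 rose most in CAR macrophages, Ass1 fell most, and Gch1 did not pass the test. Entries were found for 5 of 10 members (Ass1, Slc7a1, Oat, Odc1 and Gch1). The sequences are from RefSeq, build GRCm38.p6, on the gene's strand, 5′ to 3′, and hold only bases ahead of every annotated transcript start, except for Ass1, where a stretch of 30 bases around an E-box is given. Odc1 lies at chr12:17544623-17544793 on the + strand, Gch1 at chr14:47189414-47189663 on the - strand and Ass1 at chr2:31470222-31470251 on the + strand. Capitals mark matches to the motifs named below.
Odc1: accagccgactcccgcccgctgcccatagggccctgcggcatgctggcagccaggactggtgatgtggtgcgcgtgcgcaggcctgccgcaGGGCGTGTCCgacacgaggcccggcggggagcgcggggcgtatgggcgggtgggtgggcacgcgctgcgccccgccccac
Gch1: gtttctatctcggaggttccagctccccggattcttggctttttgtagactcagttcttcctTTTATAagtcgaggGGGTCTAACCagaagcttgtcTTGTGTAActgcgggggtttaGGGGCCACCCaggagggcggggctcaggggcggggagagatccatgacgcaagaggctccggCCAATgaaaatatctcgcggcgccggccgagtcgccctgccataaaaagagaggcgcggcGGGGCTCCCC
Ass1: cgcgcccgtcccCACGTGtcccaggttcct

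Motifs were searched on both strands of the 250 bases before each RefSeq start. A loose NF-kB pattern, GGG then 5 bases of any kind then CC, matched in all 3 genes and in 45.8% of the 32851 promoter windows of the same length. The E-box CACGTG, which holds the hypoxia core ACGTG, matched in Ass1 at -36 to -31, counted from the base before the start, and in 6.02% of all windows. In the Gch1 window, CCAAT matched at -70 to -66 (33.8% of all windows). On the other strand of that window, the C/EBP letters TTNCNNAA matched at -153 to -146 (36.8%) and the TATA letters TATAAA at -188 to -183 (12.4%). The interferon-response pattern, GAAA then 2 bases of any kind then GAAA (2.98% of all windows), and the STAT letters TTCNNNGAA (7.02%) had no match in the windows of these 3 genes. A match describes the letters only, and a missing match says only that these letters are not in this window.

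The libraries held 16962839 to 19221681 estimated counts. Changes are log2 ratios from edgeR's quasi-likelihood test on the counts with TMM scaling, and a gene is called at a Benjamini-Hochberg adjusted p under 0.05 over all 11793 genes tested. The TMM factors ran from 0.824 to 1.47, so a modelled change and a ratio of FPKM levels differ. The median change of all tested genes between CAR and control-CAR macrophages was 0.06 with TMM, 0.37 with library totals, 0.29 on log2(FPKM + 1), 0.52 on log2(TPM + 1) and -0.13 after quantile normalisation. The share of higher genes among those called was 53.3% with TMM, 70.8% with library totals, 80.6% with TPM and 43% with quantile normalisation. Changes are given relative to TMM, and a member whose direction turns under another scaling is named with it.

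**Figure D1:**
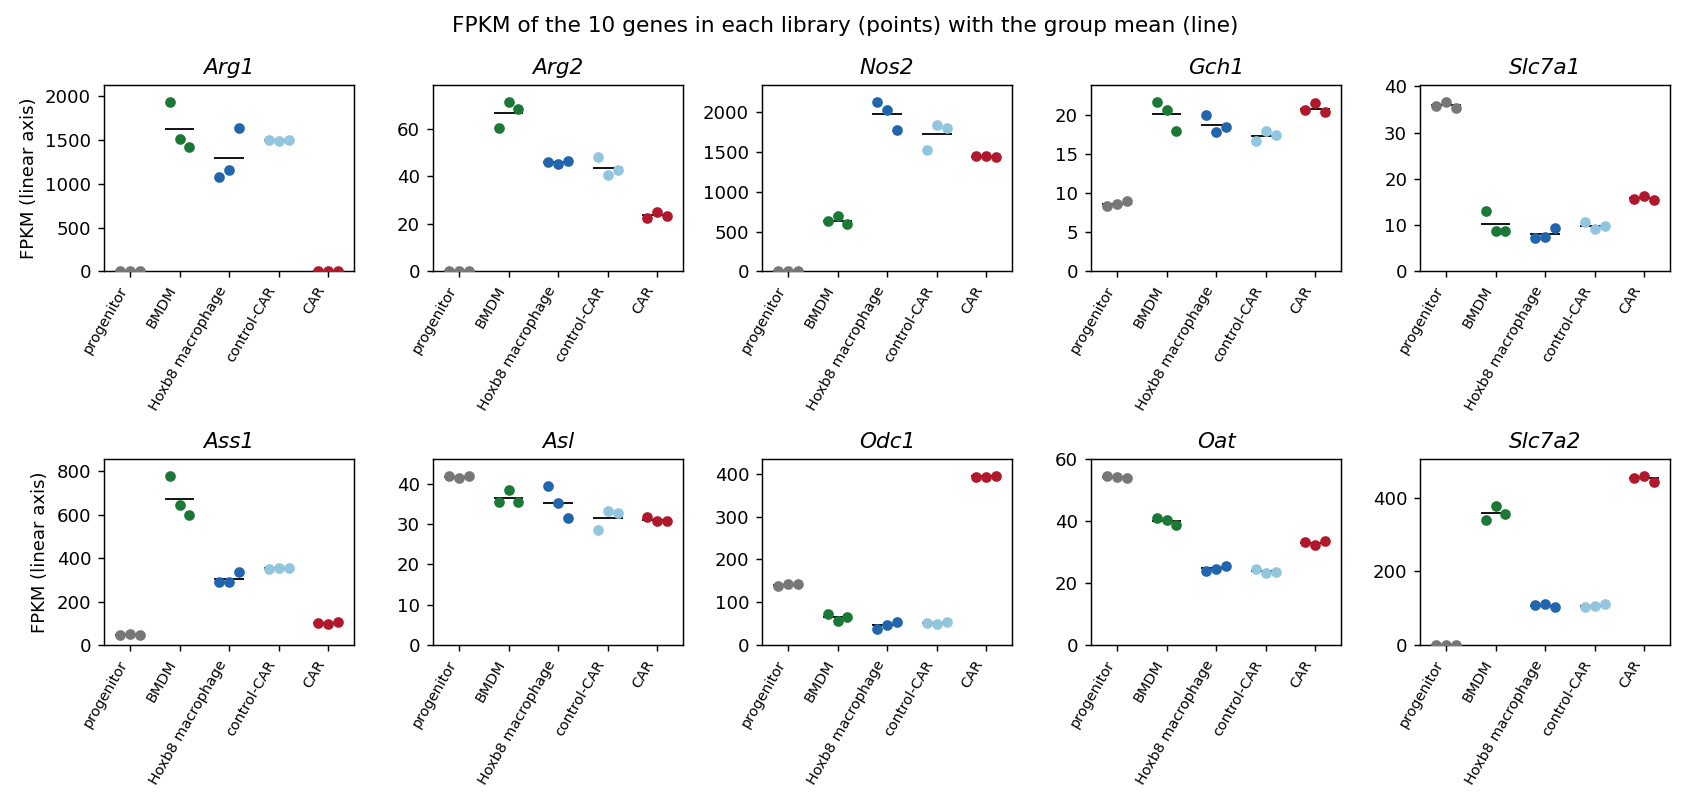
FPKM (y axis, linear from 0) of the 10 genes in each library (points) with the group mean (line), for 3 libraries in each of the 5 groups (x axis). Arg1 in CAR macrophages lay between 4.18 and 5.33 FPKM while the 9 other macrophage libraries lay between 1084 and 1937, and Odc1 was highest in CAR macrophages.

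CAR macrophages had little Arg1, abundant Nos2 and a raised ornithine decarboxylase message. Of the 10 genes, 4 were higher in CAR than in control-CAR macrophages (Odc1, Slc7a2, Slc7a1 and Oat), 5 were lower (Arg1, Ass1, Arg2, Nos2 and Asl) and 1 did not pass the test (Gch1). Of all genes tested, 78.7% were called in this comparison, 41.9% higher and 36.8% lower, so 9 of 10 members is close to the background. The median change of the members was -0.17, against 0.06 for all genes tested. FPKM did not overlap between the 3 and 3 libraries for 9 of 10 members, and for 82.1% of all genes tested.

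Arg1, the arginase of the cytosol (chr10:24915207-24927470), was at 1498, 1492 and 1506 FPKM in the control-CAR libraries and at 4.18, 4.92 and 5.33 in the CAR libraries. It was at 1937, 1516 and 1419 in BMDM, at 1084, 1155 and 1643 in Hoxb8 macrophages and at 0 in the 3 progenitor libraries. The 3 macrophage groups other than CAR overlapped, and the CAR libraries stood far under them and above the progenitors. Arg1 fell 383-fold between control-CAR and CAR macrophages, a log2 change of -8.58 (SE 0.21, adjusted p = 1.19e-15). In the order of levels, the neighbours among BMDM, control-CAR and Hoxb8 macrophages did not pass the edgeR test (adjusted p = 0.971 and 0.583). That test uses a spread estimated over all 5 groups. Among the 11793 genes tested, Arg1 ranked 67 by mean FPKM in control-CAR and 8431 in CAR macrophages. In bulk RNA, fewer cells of a type and less RNA per cell cannot be told apart.

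Arg2, the arginase of the mitochondrion (chr12:79130788-79156301), was far less abundant. It was at 47.9, 40.6 and 42.5 FPKM in control-CAR libraries, at 22.5, 25.1 and 23.2 in CAR libraries, and at 0 in the 3 progenitor libraries. The CAR libraries lay under every other macrophage library, and the log2 change from control-CAR was -1.18 (SE 0.07, adjusted p = 6.3e-11). BMDM were highest at 66.5 ± 5.76 FPKM (SD, n = 3), followed by Hoxb8 macrophages at 45.9 ± 0.484. The difference between Hoxb8 and control-CAR macrophages did not pass the test (adjusted p = 0.325). The share of Arg1 in the summed arginase FPKM was 16.9% ± 1.59 in CAR macrophages. In the 3 other macrophage groups that share ran from 95.4% to 97.3% over the 9 libraries.

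Nos2, the inducible nitric oxide synthase (chr11:78920787-78960226), ranked from 49 to 183 by mean FPKM among the 11793 genes tested in the 4 macrophage groups. Its FPKM was 1530, 1840 and 1798 in control-CAR libraries, 1447, 1449 and 1435 in CAR libraries and 2132, 2025 and 1784 in Hoxb8 macrophages. The CAR libraries lay just under the lowest control-CAR library, and the 3 progenitor libraries were at 0. The modelled log2 change between CAR and control-CAR macrophages was -0.56 (SE 0.09, adjusted p = 3.9e-05), but it was -0.01 on log2(TPM + 1) (adjusted p = 0.905) and turned to 0.36 after quantile normalisation (adjusted p = 0.00206). BMDM had 630, 693 and 597 FPKM, lower than every other macrophage library. The Nos2 difference between Hoxb8 and control-CAR macrophages did not pass the test (adjusted p = 0.182).

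**Figure D2:**
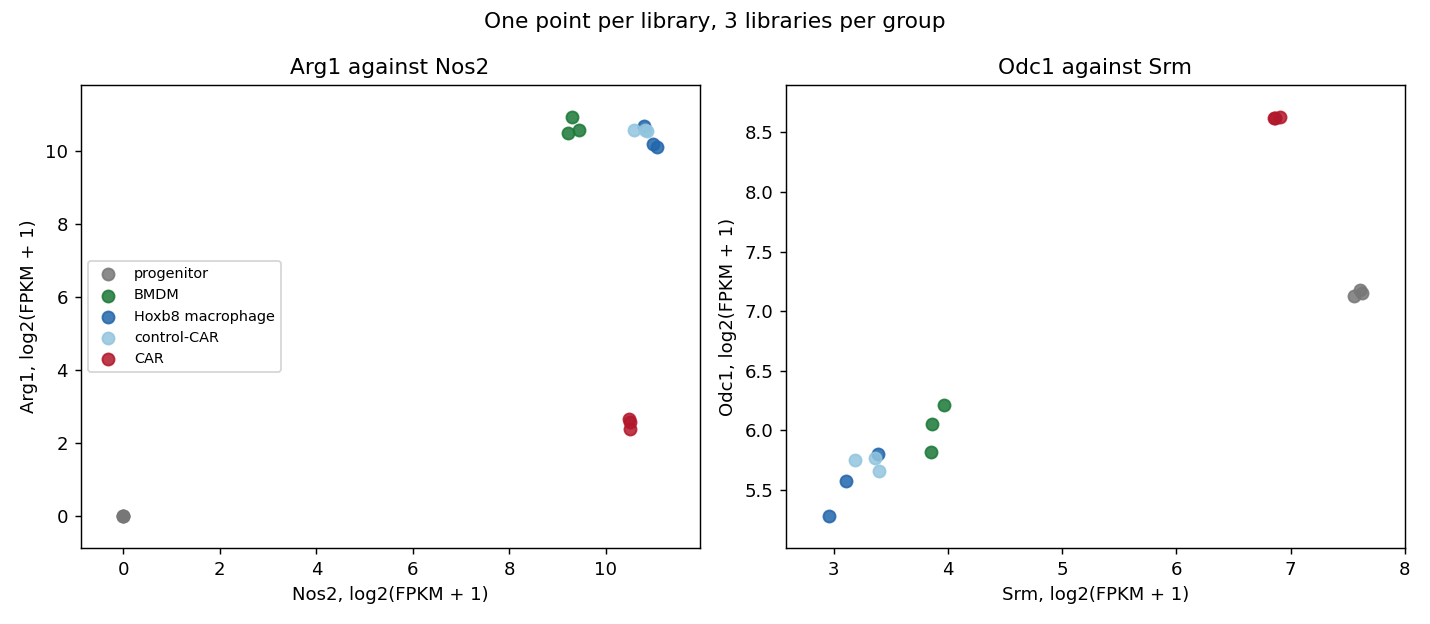
Each point is 1 library, coloured by group; the left panel plots Arg1 against Nos2 and the right panel Odc1 against the spermidine synthase gene Srm, all as log2(FPKM + 1). In the left panel CAR libraries lie between BMDM and control-CAR in Nos2 and far under both in Arg1, and in the right panel CAR and progenitor libraries have the highest Srm.

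The ratio of Arg1 to Nos2 FPKM was 0.876 ± 0.0904 in control-CAR macrophages (SD, n = 3), 0.667 ± 0.223 in Hoxb8 macrophages and 2.55 ± 0.466 in BMDM. In CAR macrophages it was 0.00333 ± 0.000416, so that Nos2 exceeded Arg1 by 269 to 346 times in single libraries. The order of the 2 genes differed between untreated BMDM, where Arg1 was higher in 3 of 3 libraries, and the Hoxb8 macrophages, where Nos2 was higher in 3 of 3.

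Gch1, which makes the first step of BH4 synthesis (chr14:47153895-47189413), stayed in a narrow range in macrophages. It was at 16.8, 18.0 and 17.5 FPKM in control-CAR libraries and at 20.6, 21.5 and 20.5 in CAR libraries, which did not overlap. The modelled change was -0.04 (SE 0.08, 95% interval -0.21 to 0.12, adjusted p = 0.624), and it turned to 0.27 with library totals (adjusted p = 0.00152) and 0.48 on log2(TPM + 1) (adjusted p = 1.41e-05). Progenitors were lowest at 8.38, 8.65 and 9.08 FPKM.

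Ass1, which joins citrulline to aspartate (chr2:31470270-31520670), was at 351, 355 and 356 FPKM in control-CAR libraries and at 103, 99.6 and 108 in CAR libraries. BMDM were highest at 779, 645 and 596, and progenitors lowest at 46.0, 50.4 and 46.7. No CAR library overlapped another group, and the log2 change from control-CAR was -2.08 (SE 0.10, adjusted p = 6.08e-13). Asl, which splits the Ass1 product to arginine (chr5:130011258-130024381), differed little: its group means were 31.1 to 41.7 FPKM. Its modelled change between CAR and control-CAR was -0.29 (SE 0.08, adjusted p = 0.00287), but it was 0.02 with library totals (adjusted p = 0.819) and 0.22 on log2(TPM + 1) (adjusted p = 0.0138), and the FPKM of the 2 groups overlapped. The ratio of Ass1 to Asl FPKM was 3.34 ± 0.156 in CAR, 11.3 ± 0.897 in control-CAR, 18.5 ± 2.99 in BMDM and 1.14 ± 0.065 in progenitor libraries (SD, n = 3 each).

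Both transporters were higher in CAR than in control-CAR macrophages. Slc7a2, the inducible cationic transporter of macrophages (chr8:40862341-40922070), was at 104, 105 and 112 FPKM in control-CAR libraries and at 454, 459 and 442 in CAR libraries. BMDM were at 340, 376 and 354, Hoxb8 macrophages at 109, 111 and 103, and the progenitors at 0. CAR libraries were highest without overlap and BMDM came next, with a log2 change of 1.78 (SE 0.06, adjusted p = 1.21e-13) from control-CAR and of 0.17 (SE 0.06, adjusted p = 0.0179) from BMDM. Slc7a1, the widely expressed cationic transporter (chr5:148327410-148399904), had its highest level in progenitors at 35.7, 36.6 and 35.2 FPKM. It was at 15.6, 16.3 and 15.5 in CAR and 10.7, 9.20 and 9.83 in control-CAR libraries, a modelled change of 0.36 (SE 0.13, adjusted p = 0.017). Without control-CAR replicate 2 that call was lost (adjusted p = 0.0542). Slc7a2 made up 96.6% ± 0.0557 of the summed FPKM of both transporters in CAR macrophages (SD, n = 3), 91.5% ± 0.722 in control-CAR macrophages and 0% in progenitors.

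Odc1, the ornithine decarboxylase that starts polyamine synthesis (chr12:17544808-17551502), was at 393, 392 and 395 FPKM in CAR libraries. It was at 52.8, 49.7 and 53.4 in control-CAR, 37.9, 46.6 and 54.9 in Hoxb8 macrophages, 73.2, 55.6 and 65.3 in BMDM, and 139, 144 and 142 in progenitor libraries. CAR was highest and progenitors next, with no overlap between them or with the other groups. Odc1 rose 6.14-fold from control-CAR to CAR macrophages, a log2 change of 2.62 (SE 0.11, adjusted p = 1.4e-13), and was above the progenitors by 1.96 (SE 0.11, adjusted p = 2.67e-12). Oat, the ornithine aminotransferase (chr7:132557475-132576398), was at 33.4, 32.2 and 33.6 FPKM in CAR and 24.6, 23.4 and 23.7 in control-CAR libraries, a modelled change of 0.16 (SE 0.05, adjusted p = 0.00885). The ratio of Odc1 to Oat FPKM was 11.9 ± 0.229 in CAR macrophages (SD, n = 3) and between 1.61 and 2.61 as the mean of the 4 other groups.

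**Figure D3:**
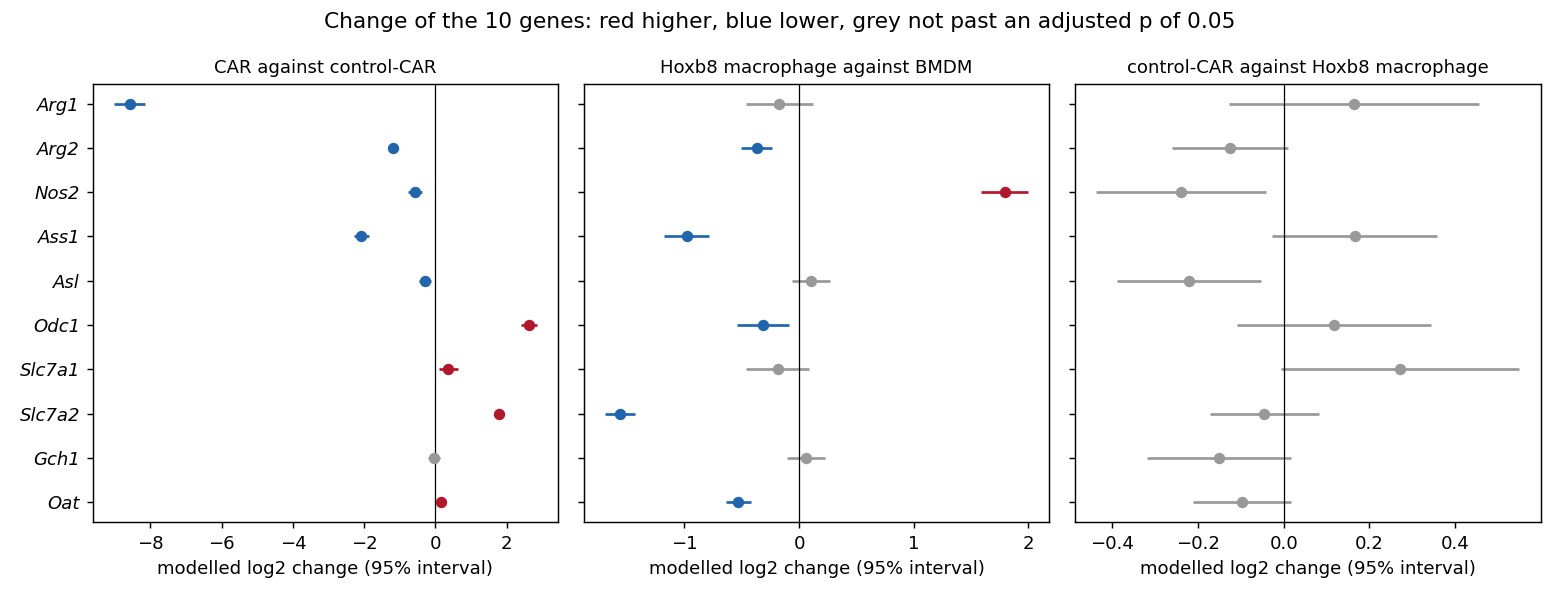
Modelled log2 change (x axis) with its 95% interval for the 10 genes in 3 comparisons, red where higher, blue where lower and grey where not called; the panels have different x ranges. Arg1 at -8.58 and Odc1 at 2.62 are the extremes for CAR against control-CAR, Nos2 alone is higher in Hoxb8 macrophages than in BMDM, and no gene is called between control-CAR and Hoxb8 macrophages.

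Other genes of the pathways were taken as fixed lists, and changes are for CAR against control-CAR macrophages. Of 5 tested arginine transport genes, 1 was higher and 4 were lower, with a median of -0.93 against 0.06 for all genes. Slc7a7, the light chain of the exporter of basic amino acids, dropped to 0.393 ± 0.0404 FPKM in CAR macrophages from 3.09 ± 0.274 (log2 change -3.21, SE 0.20). Slc7a6 fell by 0.98 and Slc25a15, a mitochondrial ornithine carrier, by 0.93 on the log2 scale. Slc25a29 fell by 0.80 from a level near 1.03 FPKM, and this call was lost on log2(TPM + 1) (adjusted p = 0.194).

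Polyamine genes moved in both directions, with 9 of 16 higher, 7 lower and a median of 0.21. Srm, the spermidine synthase, reached 117 ± 2.10 FPKM in CAR macrophages from 8.97 ± 0.777 (SD, n = 3), a log2 change of 3.40 (SE 0.09), and its progenitor level was 193 ± 4.83. Azin2, an antizyme inhibitor, fell by 3.44 (SE 0.08), from 63.6 ± 0.412 to 7.33 ± 0.279 FPKM. Paox, which oxidises acetylated polyamines, fell by 1.47 and Oaz2, an antizyme that targets ornithine decarboxylase, by 1.23. Under the alternative scalings, 8 to 10 of the 16 were called higher and 5 to 7 lower.

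On the proline and creatine branch, 4 of 7 tested genes were higher and 0 lower, with a median of 0.69. Aldh18a1, of the first step of proline synthesis, rose by 0.69 on the log2 scale. Pycr1 had a change of 0.77 (SE 0.25) but turned to -1.43 after quantile normalisation, where 3 genes of this list were called higher and 4 lower. Gatm, the first enzyme of creatine synthesis, had 2 counts in the control-CAR libraries together and 434 in the CAR libraries, a ratio of 170 with a 95% counting interval of 46.7 to 1400. Its level in CAR macrophages was 3.88 ± 0.246 FPKM, below the 13.6 ± 1.77 of BMDM.

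Of 8 tested genes of BH4 and nitric oxide handling, 6 were higher and 0 lower, with a median of 0.69, and 5 were higher and 2 lower after quantile normalisation. Spr, the last enzyme of BH4 synthesis, rose by 1.01 (SE 0.13). Ddah2, which breaks down the methylarginines that inhibit nitric oxide synthase, changed by 1.27 (SE 0.36) and turned to -0.85 after quantile normalisation. Its paralog Ddah1 had no count in the control-CAR libraries and 2.08 ± 0.248 FPKM in CAR macrophages, at least 33.8-fold higher when 3 counts per library are taken as the floor.

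The 12 regulators known to act on Arg1, Nos2 or Odc1 were all called, 4 higher and 8 lower, with a median of -0.42. With TPM, 6 were called higher and 5 lower. Klf4, a zinc-finger factor of alternative activation, rose to 32.5 ± 0.655 FPKM in CAR macrophages from 0.257 ± 0.00577 (log2 change 6.67, SE 0.13). Pparg, a nuclear receptor of the same programme, went the other way, from 8.64 ± 0.466 to 0.163 ± 0.0839 FPKM (-5.89, SE 0.22). Irf1, which takes part in the induction of Nos2 by interferon, rose by 3.39 (SE 0.07). Cebpb, which acts on both Arg1 and Nos2, fell by 1.54 (SE 0.10).

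**Figure D4:**
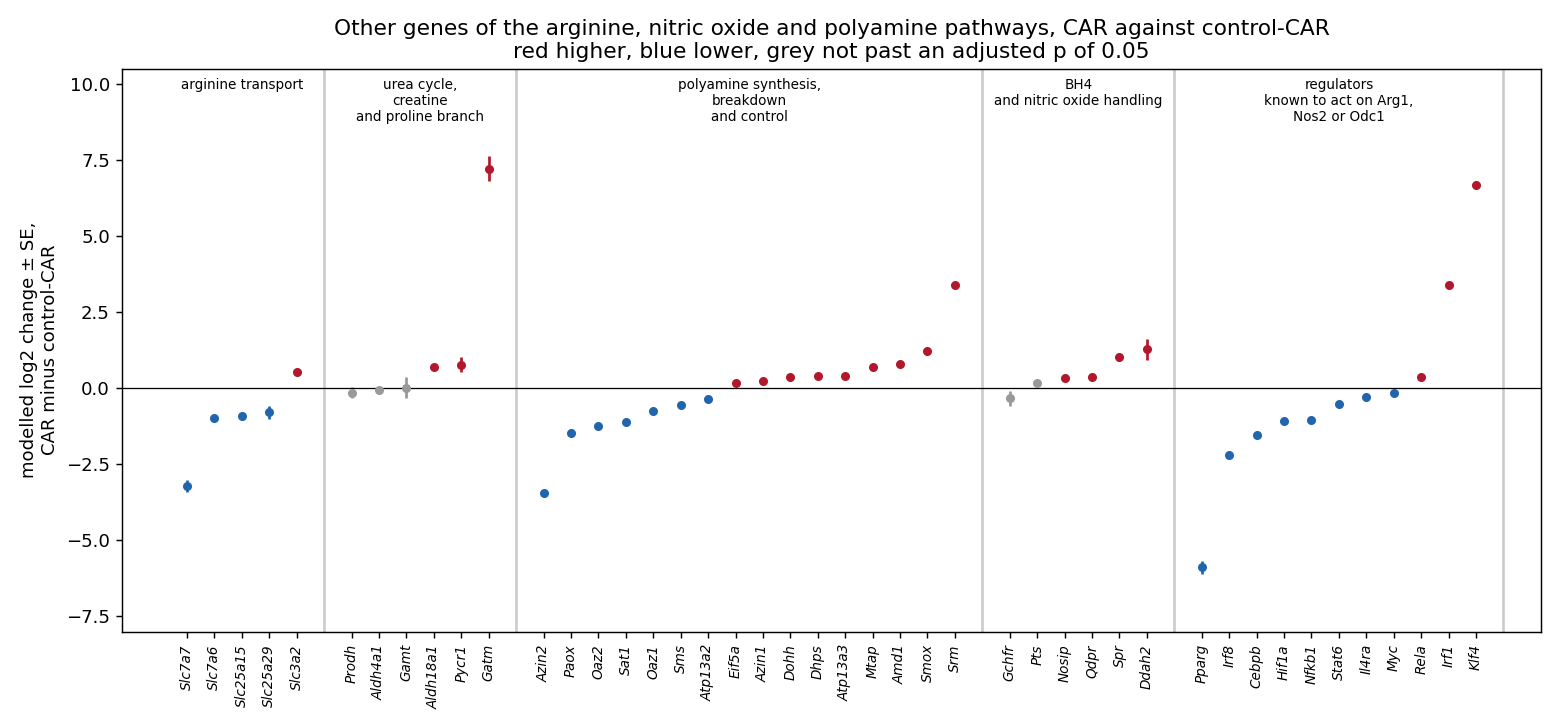
Modelled log2 change ± SE (y axis) between CAR and control-CAR macrophages for tested genes of 5 pathway lists (x axis), red where higher, blue where lower and grey where not called. Ddah1, which has no count in control-CAR macrophages, and 3 other genes are not drawn; Klf4 (6.67) and Gatm lie highest and Pparg (-5.89) lowest.

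Markers of other cells also differed between these 2 groups. The summed FPKM of 8 macrophage markers was 5582 to 5739 in CAR and 12020 to 12850 in control-CAR libraries, with 7 of 8 at 1 FPKM or more in both. The 9 mast cell and basophil markers in the table summed to 3592 to 3815 in CAR, 415.8 to 465.1 in control-CAR and 1665 to 1787 in progenitor libraries, with Mcpt4 at 0 in control-CAR libraries. In progenitors 4 of the 9 were at 0: Fcer1a, Cma1, Tpsb2 and Mcpt4. For 8 myeloid progenitor markers the sums were 219.2 to 235 in CAR and 23.82 to 25.2 in control-CAR libraries, and for 9 neutrophil markers 190.4 to 224 and 1702 to 2085. The 8 fibroblast markers summed to 51.87 to 53.26 in CAR and 16.38 to 19.13 in control-CAR libraries, with Sparc at 0 in the latter. For 8 epithelial markers the sums were 9.73 to 10.15 and 0.51 to 0.87, with Epcam, Krt18, Krt20 and Cdx2 at 0 in control-CAR libraries. The 8 T and NK cell markers summed to 74.46 to 76.8 and 34 to 44.76, with Cd3e and Cd3g at 0 in both groups. Only 1 of these 8 reached 1 FPKM in either group, Il7r, at 75.6 ± 1.22 in CAR, 38.7 ± 5.47 in control-CAR, 37.8 ± 2.20 in Hoxb8 macrophages and 58.8 ± 2.20 in BMDM (FPKM, SD, n = 3). B cell markers reached at most 0.37 in both. Gene by gene, 7 of 8 macrophage markers were lower and 1 (Mertk) higher. Of 9 neutrophil markers 7 were lower and 1 (Mpo) higher. Of 8 tested mast cell and basophil markers 7 were higher and 0 lower, and of 8 myeloid progenitor markers 5 and 0. Of 6 tested fibroblast markers 4 were higher and 1 lower, and of 4 tested epithelial markers 3 and 0. Of all genes tested, 41.9% were higher and 36.8% lower. Kit and Mpo each stand in more than 1 list. The part of cells with these markers in the changes of the 10 genes was not tested.

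Hoxb8 macrophages had Arg1, Arg2, Nos2 and Slc7a2, which had no count in the 3 progenitor libraries, and less Odc1 and Slc7a1. Of the 10 genes, 7 were higher and 3 lower than in progenitors, where 84.3% of all genes tested were called, 44.7% higher and 39.6% lower. Of the called genes 53% were higher with TMM, but 30.3% with library totals and 24.5% with TPM, where the median of all genes was -0.69 and -0.86. Taking 3 counts per library as the floor, Nos2 was at least 80000-fold higher, Arg1 at least 15800-fold, Slc7a2 at least 8370-fold and Arg2 at least 533-fold. Ass1 was higher by 3.51 (SE 0.10) and Gch1 by 1.94 (SE 0.08) on the log2 scale. Asl was higher by 0.58 (SE 0.08) but turned to -0.25 with library totals and -0.54 on log2(TPM + 1), both past the threshold. Odc1, Slc7a1 and Oat were lower, with changes of -0.77 (SE 0.11), -1.32 (SE 0.13) and -0.29 (SE 0.05). The median of the 10 was 2.73, unchanged with the 4 genes at their bounds, against 0.06 for all genes.

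A count of 0 was found in all 3 progenitor libraries for 3691 genes, of which 62 reached 100 FPKM in another group. Genes that all cells use were well above 0 there, with Gapdh at 4158 and Actb at 1263 FPKM. The 8 myeloid progenitor markers summed to 2892 to 2930 FPKM in the progenitors and 23.69 to 26.8 in Hoxb8 macrophages, and the 8 macrophage markers to 207.2 to 228.2 and 12470 to 13120, with Mertk at 0 in progenitors. In the pathway lists, 11 of 12 regulators were higher in Hoxb8 macrophages than in progenitors and 1 was lower, while 6 of 7 genes of the proline and creatine branch and 6 of 8 of BH4 and nitric oxide handling were lower and 0 higher. Cebpb, a factor that drives Arg1 and Nos2 transcription, rose by 5.50 (SE 0.12), to 841 ± 82.3 FPKM from 33.1 ± 0.693. Smox, the spermine oxidase, rose by 7.33 (SE 0.17) and Srm fell by 3.76 (SE 0.09) among polyamine genes, of which 8 of 16 were higher and 8 lower, or 3 and 12 with library totals.

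BMDM against progenitors gave 8 members higher and 2 lower, where 87.3% of all genes tested were called, 46.6% higher and 40.7% lower. Of the called genes 53.4% were higher with TMM, 35.1% with library totals and 32.2% with TPM. The same 4 genes had no count in progenitors, which both comparisons share. With TMM these genes were at least 24700-fold (Slc7a2), 23100-fold (Nos2), 17800-fold (Arg1) and 690-fold (Arg2) higher in BMDM. These bounds too would be lower with library totals. Ass1 was higher by 4.50 (SE 0.11). Slc7a1 and Odc1 were lower, with changes of -1.14 (SE 0.13) and -0.46 (SE 0.10). Oat was higher by 0.24 (SE 0.05) with TMM but turned to -0.43 with library totals, and Asl, higher by 0.48 (SE 0.08), turned to -0.18, so that 4 members were called lower there. The 9 neutrophil markers summed to 4839 to 11330 FPKM in BMDM against 182 to 212.8 in progenitors, and the 5 B cell markers to 29.85 to 54.2 against 0.16 to 0.29. Their part in these differences was not tested.

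Against BMDM, Hoxb8 macrophages had more Nos2 and less of 5 other members. Of all genes tested, 70.3% were called, 32.0% higher and 38.3% lower, and among the 10 members 1 was higher, 5 were lower and 4 did not pass. Of all called genes 45.5% were higher with TMM, 30.9% with library totals, 20.2% with TPM and 58.3% after quantile normalisation. Nos2 was higher by 1.79 (SE 0.10, adjusted p = 5.66e-11). The 5 lower genes were Slc7a2 at -1.56 (SE 0.06), Ass1 at -0.98 (SE 0.09), Oat at -0.53 (SE 0.05), Arg2 at -0.37 (SE 0.06) and Odc1 at -0.32 (SE 0.11). The Odc1 call (adjusted p = 0.0135) was lost without BMDM replicate 1 (0.0969), without Hoxb8 macrophage replicate 1 (0.0991) and in a fit of the 2 groups alone (0.0753). Arg1 differed by -0.17 (SE 0.14, adjusted p = 0.276, 95% interval -0.46 to 0.12), a value that moved with the scaling and with single libraries. It was called lower with library totals (-0.33, adjusted p = 0.0331), on log2(FPKM + 1) (-0.34, 0.0361), on log2(FPKM + 0.1) (-0.34, 0.0427), on log2(TPM + 1) (-0.51, 0.00303) and after quantile normalisation (-0.48, 0.0047). It was 0.0035 without BMDM replicate 1 and -0.37 without Hoxb8 macrophage replicate 3 (adjusted p = 0.0121). Asl, Slc7a1 and Gch1 had differences of 0.10, -0.19 and 0.06, and Asl and Gch1 turned to -0.22 and -0.27 with TPM, with 9 of 10 members then called lower.

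Markers of other cells differed here too. In BMDM 9 neutrophil markers summed to 4839 to 11330 FPKM against 1226 to 1469 in Hoxb8 macrophages, 8 myeloid progenitor markers to 141.6 to 212.8 against 23.69 to 26.8, and 5 B cell markers to 29.85 to 54.2 against 0.15 to 0.17. The sum of the 9 mast cell and basophil markers went the other way, with 270 to 293.3 in BMDM against 411.5 to 423.4. Gene by gene, 3 of the 8 tested were higher and 4 lower in Hoxb8 macrophages, with a median change of -1.75. The 8 fibroblast markers summed to 21.96 to 23.46 in BMDM against 15.95 to 18.63. Of the 6 fibroblast markers tested, 1 was higher and 5 were lower in Hoxb8 macrophages, with a median change of -5.25. The 8 T and NK cell markers summed to 57.58 to 61.8 in BMDM against 35.9 to 40.25. The 8 epithelial markers summed to 20.63 to 25.25 against 0.41 to 1.2, and 8 macrophage markers to 12580 to 13740 against 12470 to 13120. Their part in these differences was not tested. Gatm was at 13.6 ± 1.77 FPKM in BMDM and had no count in Hoxb8 macrophages, at least 147-fold lower, and Gamt, the second creatine enzyme, had a change of -2.58 (SE 0.27). The proline and creatine list had 6 of 7 genes lower and 0 higher in Hoxb8 macrophages, or 4 lower and 1 higher after quantile normalisation. In the polyamine list 8 of 16 were higher and 5 lower, led by Azin2 (1.93, SE 0.07), and 5 were higher and 8 lower with TPM.

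Between control-CAR and untreated Hoxb8 macrophages none of the 10 genes passed the test. By edgeR's quasi-likelihood test 0 of 10 were called and by DESeq2 0 of 10, and 2 had an unadjusted p under 0.05 (Asl and Nos2). Of all genes tested 2.62% were called, 0.721% higher and 1.90% lower. The majority turned with some scalings: 85 were higher and 224 lower with TMM, 278 and 192 with library totals, 248 and 157 on log2(FPKM + 1), 241 and 137 on log2(FPKM + 0.1) and 310 and 147 with TPM. Lower genes stayed the majority with DESeq2 (117 higher, 313 lower), upper quartile factors (72 and 252) and quantile normalisation (70 and 144). The widest 95% interval among the 10 genes was that of Arg1, whose difference was 0.16 (-0.13 to 0.46). Nos2 differed by -0.24 (-0.44 to -0.04, adjusted p = 0.182) and Slc7a1 by 0.27 (-0.01 to 0.55, adjusted p = 0.29), so differences of this size are not excluded. FPKM did not overlap for 1 member, Ass1, and for 21.9% of all genes tested.

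Over the 15 libraries, Arg1 had its highest Pearson correlations of log2(FPKM + 1) with Mmp13 (0.998), Abcg1 (0.996) and Dhrs1 (0.995). They were sought among 3713 genes with a wide range, passing over symbols that begin with Gm and a digit or end in Rik. Mmp13, a collagenase, was at 4.71 FPKM in CAR macrophages, 328 in control-CAR macrophages and 324 in BMDM. Abcg1 was at 12.4 in CAR and 41.4 in control-CAR macrophages, and Dhrs1 at 47.7 and 151. A high correlation thus does not mean a change of like size. For Nos2 the closest genes were AA467197 (0.9996), Cd68 (0.998) and Tnfrsf9 (0.998). Cd68, a lysosomal macrophage marker, was at 738 FPKM in CAR, 758 in control-CAR, 507 in BMDM and 17.5 in progenitor cells. The libraries share their groups and the genes were picked for this likeness, so the correlations describe these libraries only.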

How the data were processed

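Bulk mRNA sequencing of 15 libraries was read from 1 table of 17030 genes. The authors deposited estimated counts (not normalised), FPKM and TPM for each library, as the column headers name them. The submitters' processing notes name HISAT2, Bowtie2, RSEM 1.3.1, DESeq2 1.4.5 and GRCm38.p6. The role of each, the gene annotation and any strand setting: not given in the sources used here. Between 94.4% and 96.0% of estimated counts per library were whole, and they were rounded. The table also held 15 columns of averages, not used here.

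Genes with an FPKM of 1 in at least 3 libraries were tested (11793 kept, 5237 left out) in 1 edgeR model of all 15 libraries with TMM scaling and 10 residual degrees of freedom, two-sided. The test was also run on simulated counts in which every gene and group had the same spread beyond counting error. The spread of the real replicates differed between groups, so that run does not measure the error rate on these data. The tools were edgeR 4.0.16, DESeq2 1.42.0 and limma 3.58.1 in R 4.3.3, with matplotlib 3.10.9 in Python 3.11.15. Gene coordinates and promoter windows came from RefSeq tables of GRCm38.p6. A count of 0 was taken to allow 3 counts per library, and intervals on counts cover counting error only.

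The members and lists were chosen with earlier results of these data known. The text names all 10 members, for each list up to 4 called genes that changed most in a comparison, and the 3 genes most like Arg1 and the 3 most like Nos2; 3 genes of these lists are not reported here by name. Not tested because of low values were Slc7a3, Slc25a2, Cps1, Nags, Pcbd1, Nos1, Nos3, Gucy1a1 and Gucy1b1, and no row matched Otc, Pycr3 or Agmat. Alternatives were DESeq2, 4 other scalings or units, other filters and pseudocounts, a fit of the groups compared alone, a replicate block and leaving out each library.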

Additional observations from a re-analysis of the deposited data

How the results depend on the processing

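For the 10 genes in 5 comparisons, 796 of the values recomputed under an alternative kept their direction and side of the threshold. In the same direction, 9 fell short of it and 10 newly passed it, and 35 turned direction, on either side of the threshold. Some that turned also newly passed, such as Gch1 for CAR against control-CAR with library totals (edgeR, adjusted p = 0.00152). The 10 that newly passed in the same direction were all for Hoxb8 macrophages against BMDM: Arg1 6 times (5 scalings or units and 1 left-out library) and Slc7a1 4 times (-0.35 with library totals, -0.29 on log2(FPKM + 1), -0.46 with TPM and -0.31 without BMDM replicate 3). For CAR against control-CAR, Gch1 turned to 0.034 with upper quartile factors, 0.27 with library totals, 0.25 on log2(FPKM + 1), 0.26 on log2(FPKM + 0.1), 0.48 with TPM and, with 1 library left out, ran from -0.094 to 0.0022 (the turn came without control-CAR replicate 2). Asl turned to 0.019 with library totals and 0.22 with TPM, Nos2 turned to 0.36 with quantile normalisation, and the members called lower were 3 with TPM. For Hoxb8 macrophages against progenitors, Asl turned to -0.25 (library totals), -0.24 and -0.25 (FPKM with pseudocounts of 1 and 0.1) and -0.54 (TPM). Against BMDM, in the same order, Asl turned to -0.064, -0.049, -0.051 and -0.22 and Gch1 to -0.11, -0.095, -0.099 and -0.27, and 9 members were called lower with TPM. Leaving out libraries there gave Arg1 from -0.37 to 0.0035, Slc7a1 from -0.31 to 0.065 and Gch1 from -0.035 to 0.14; the turns came without BMDM replicate 1 for Arg1 and Slc7a1 and without BMDM replicate 3 for Gch1. For BMDM against progenitors, in the same order again, Asl turned to -0.18, -0.19, -0.20 and -0.31 and Oat to -0.43, -0.43, -0.43 and -0.55, with 4 members called lower under each of these. For control-CAR against Hoxb8 macrophages, Slc7a2 turned to 0.0068 with TPM and 0.014 with quantile normalisation and Odc1 to -0.010 without Hoxb8 macrophage replicate 1. There 309 genes were called, 470 with library totals, 97 in a fit of the 2 groups alone and 106 to 311 with 1 library left out (106 without Hoxb8 macrophage replicate 1, 118 without control-CAR replicate 3 and 170 without Hoxb8 macrophage replicate 2). The cause of these shifts was not tested.

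Replicate numbers did not pair the libraries: of 30 pairs with the same number, 0 had a correlation of deviations over 0.1 (range -0.258 to 0.0814), and 7 of 15 libraries correlated better with their own number. Pairs with different numbers ran from -0.195 (BMDM replicate 3 with control-CAR replicate 2) to 0.294 (BMDM replicate 3 with control-CAR replicate 1). A link between libraries under another numbering was not tested. With a replicate block, 246 genes were called between control-CAR and Hoxb8 macrophages. The block changed no call of the 10 genes. Depth limits the folds against a group with no count, which are lower bounds with TMM scaling.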
